A study of Mus musculus with 6 samples.

Results

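The 39 genes described here carry the fatty acid fuel supply of the heart, from the capture of circulating fat and the lipid droplet to the last step of mitochondrial beta-oxidation. They were taken as a fixed list of gene symbols and found as 39 of the 37620 gene rows of 1 deposited count table. Each of the 39 had reads in all 6 libraries, with a lowest count of 28, and all 39 passed the filter on low counts that left 14738 genes for testing.

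Messenger RNA was sequenced from the heart apex of C57/BL6J mice of wild-type genotype. Blood flow to heart muscle had been stopped for 30 min (ischaemia) and then restored for 120 min (reperfusion). In the dexmedetomidine group (3 libraries), the vehicle of yohimbine was given 30 min before 10 µg/kg dexmedetomidine, and surgery followed 20 min after the drug. In the vehicle group (3 libraries), mice received the vehicles of both agents before the same surgery, at times that the labels do not state. Each agent was infused slowly into the tail vein, within 10 min. Dexmedetomidine is a sedative that activates alpha-2 adrenergic receptors, and yohimbine is an antagonist of those receptors that neither group received. Age and sex are not given, and nothing says that the 3 libraries of a group came from separate animals, so the spread behind each p-value may be technical. The comparison asks which fatty acid transcripts differ in reperfused hearts when dexmedetomidine came first.

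A working heart draws most of its ATP from long-chain fatty acids. Lipoprotein lipase frees them from circulating triglyceride, the membrane protein CD36 and transport proteins admit them, and cytosolic binding protein carries them to acyl-CoA synthetases. Carnitine carries the activated acyl groups across the inner mitochondrial membrane, a gate that malonyl-CoA closes, and the beta-oxidation spiral then removes acetyl-CoA units and passes electrons to the respiratory chain. Many of these genes are known targets of the nuclear receptor PPAR-alpha and of the coactivator PGC-1alpha.

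Most of the 39 genes measured lower in hearts given dexmedetomidine, and lipoprotein lipase measured higher, but none passed the main test. In edgeR's quasi-likelihood test with Benjamini-Hochberg adjustment over all genes, 0 of 39 passed an adjusted p of 0.05, as did 0% of all genes tested, and the smallest adjusted p among the 39 was 0.101. The log2 fold change (dexmedetomidine minus vehicle) was below 0 for 35 of 39, against 49.7% of all genes tested, with a median of -0.24 for the 39 and of 0.0032 for all genes. An unadjusted edgeR p under 0.05 was reached by 15 of 39 in the lower direction, against 9.03% of all genes, and by 2 of 39 in the higher direction, against 12.5%. The 3 dexmedetomidine values all lay below the 3 vehicle values for 18 of 39, against 12% of all genes, and all above them for 2 of 39, against 15.6%. Those 2 were Lpl and the acyl-CoA synthetase gene Acsl3.

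Other tools called some of the 39 at the same adjusted threshold. DESeq2 called 8 lower (2.95% of all genes with an adjusted p) and 1 higher (6.61%). The 8 were Mlycd, Acot1, Slc27a1, Fabp3, Angptl4, Acot2, Etfb and Acadvl, and the 1 was Lpl. limma-voom with sample quality weights called 12 lower (5.31% of all genes) and 1 higher (8.98%), which were the 9 of DESeq2 with Acaa1a, Acaa2, Eci1 and Lipe added. Without vehicle replicate 3, edgeR called 6 lower (2.19% of all genes) and 1 higher (6.13%), all 7 of them also called by both other tools. Without any other single library it called 0 of the 39, and 0% to 0.0464% of all genes. With no filter on low counts, edgeR called 6 lower (0.528% of all genes) and 0 higher (1.35%).

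Depth and makeup of the libraries differed between the groups. Gene counts summed to 42.7 M to 48.6 M in dexmedetomidine libraries and to 50.3 M to 56.6 M in vehicle libraries (M, 1e6 counts). Transcripts of the mitochondrial genome took 27.1% to 38.2% of gene counts in dexmedetomidine libraries and 22.0% to 25.2% in vehicle libraries. The 39 genes, all of them nuclear, made up 1.94% to 2.01% of gene counts after dexmedetomidine and 2.04% to 2.34% after vehicle. Their share of nuclear-encoded counts alone overlapped, at 2.75% to 3.14% after dexmedetomidine and 2.61% to 3.05% after vehicle. With the mitochondrially encoded genes left out before normalisation, the median log2 fold change of the 39 was -0.26.

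Cardiomyocyte markers were mostly in the same direction as the fatty acid genes. Of 10 such markers 9 measured lower, with a median log2 fold change of -0.29 and 0 past the edgeR adjusted threshold. Values below 0 ran from -0.07 for Ryr2 to -0.62 for Tcap, and Pln was higher at 0.48, with its groups apart. With offsets in the fit that removed trends with GC content and length, Myh6 was at -0.31, Tcap at -0.15, Tnni3 at 0.06 and Pln at -0.29. Their summed level was 45379.5 to 49604 CPM (counts per 1e6 counts of a library, with TMM-scaled library sizes) in dexmedetomidine libraries and 53521 to 62319 CPM in vehicle libraries. Myh6 alone averaged 12577 CPM of it after dexmedetomidine and 17446 CPM after vehicle. In pieces of tissue, fewer cells of a type and less RNA per cell cannot be told apart. Endothelial markers summed to 1065 to 1162 CPM after dexmedetomidine and 1154 to 1248 CPM after vehicle, with 5 of 8 lower. Of 8 adipocyte markers, 6 were under 1 CPM in each library, among them Adipoq and Plin1. The 8 summed to 411 to 606 CPM after dexmedetomidine and 544 to 637 CPM after vehicle, most of it from Fabp4. The brown fat marker Ucp1 had a count of 0 throughout. Fibroblast markers, with 4 of 6 higher, summed to 914 to 1198 CPM after dexmedetomidine and 798 to 913 CPM after vehicle, most of it from Dcn. Mural markers summed to 1287 to 1461 CPM after dexmedetomidine and 972 to 1092 CPM after vehicle, most of it from Rgs5, while 4 of 6 were lower. Neutrophil markers had 5 of 5 above 0 and overlapping sums of 42.0 to 167 CPM after dexmedetomidine and 52.2 to 106 CPM after vehicle. The part that cell makeup or the mitochondrial share plays in the fatty acid results was not tested.

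Promoter sequences were read from RefSeq (build GRCm38.p6) for 32 of the 39 genes, as 250 bases before to 50 bases after an annotated start. The first 4 printed belong to genes with low adjusted p, namely Mlycd, Fabp3 and the neighbouring thioesterase genes Acot1 and Acot2, and Cd36 is shown as a promoter that holds each of the 3 marked motifs. Capitals mark the nuclear receptor core AGGTCA, the GC box GGGCGG and the CCAAT box, on either strand.
Mlycd promoter (chr8:119394644-119394943, plus strand): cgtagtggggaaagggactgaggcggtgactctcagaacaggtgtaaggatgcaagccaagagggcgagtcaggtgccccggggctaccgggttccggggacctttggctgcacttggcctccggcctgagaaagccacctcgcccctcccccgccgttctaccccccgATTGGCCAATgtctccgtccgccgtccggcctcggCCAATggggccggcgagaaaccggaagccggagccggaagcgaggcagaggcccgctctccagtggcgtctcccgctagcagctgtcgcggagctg
Acot1 promoter (chr12:84009252-84009551, plus strand): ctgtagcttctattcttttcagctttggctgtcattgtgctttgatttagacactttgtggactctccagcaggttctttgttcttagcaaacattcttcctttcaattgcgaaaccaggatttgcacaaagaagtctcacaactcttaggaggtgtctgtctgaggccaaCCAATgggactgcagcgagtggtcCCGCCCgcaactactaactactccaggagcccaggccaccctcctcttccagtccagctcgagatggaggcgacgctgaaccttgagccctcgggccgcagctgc
Acot2 promoter (chr12:83987611-83987910, plus strand): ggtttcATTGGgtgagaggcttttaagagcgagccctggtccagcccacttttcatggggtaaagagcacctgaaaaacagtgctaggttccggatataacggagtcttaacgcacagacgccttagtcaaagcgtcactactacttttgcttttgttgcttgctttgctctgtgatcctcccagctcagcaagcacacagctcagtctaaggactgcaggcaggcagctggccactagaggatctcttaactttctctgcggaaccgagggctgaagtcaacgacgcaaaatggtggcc
Fabp3 promoter (chr4:130308488-130308787, plus strand): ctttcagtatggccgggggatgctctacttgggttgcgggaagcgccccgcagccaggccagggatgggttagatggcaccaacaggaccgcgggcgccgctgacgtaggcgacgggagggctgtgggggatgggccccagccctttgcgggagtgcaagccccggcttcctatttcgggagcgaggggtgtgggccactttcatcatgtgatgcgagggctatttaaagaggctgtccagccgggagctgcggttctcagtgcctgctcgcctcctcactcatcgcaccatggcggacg
Cd36 promoter (chr5:17835847-17836146, minus strand): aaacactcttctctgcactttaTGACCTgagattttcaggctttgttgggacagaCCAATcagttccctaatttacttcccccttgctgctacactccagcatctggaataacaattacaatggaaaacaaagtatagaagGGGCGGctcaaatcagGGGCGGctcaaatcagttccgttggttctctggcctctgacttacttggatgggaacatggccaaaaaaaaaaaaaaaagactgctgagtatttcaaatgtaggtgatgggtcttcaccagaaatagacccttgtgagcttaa

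The marked motifs were described over all members, with both strands searched. The core AGGTCA, which PPAR and ERR receptors bind as part of longer elements, stood in 7 of the 32 promoters (Acadm, Acadvl, Cd36, Cpt1a, Echs1, Plin5 and Ucp3), against 18.1% of the 27025 genes with a promoter entry. Its direct repeat with 1 base between, AGGTCANAGGTCA, was found in 0 of 32, against 0.0481% of all genes. The GC box was found in 24 of 32, against 38.2%, the CCAAT box in 16 of 32, against 41.1%, and the TATA box TATAAA in 0 of 32, against 15.7%. The Mlycd window held 3 CCAAT boxes, of which 2 on opposite strands stand side by side. The Acot1 window held 1 GC box and 1 CCAAT box, and the Acot2 window 1 CCAAT box. Compared base by base from the same distance to the start, the windows of Acot1 and Acot2 had the same base at 74 of 300 positions. Exact letters in these windows are a description, not binding sites.

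Levels per length, as RPKM from the deposited gene lengths, spread over a wide range among the 39 genes. Fabp3, the cytosolic fatty acid binding protein of heart muscle, stood first, with means of 1606 RPKM after dexmedetomidine and 2709 RPKM after vehicle. By the mean of both groups, Lpl came next, with 786 RPKM after dexmedetomidine and 458 RPKM after vehicle. Cd36 followed with 583 RPKM after dexmedetomidine and 483 RPKM after vehicle, then the thiolase gene Acaa2 with 474 RPKM after dexmedetomidine and 582 RPKM after vehicle. After vehicle alone Acaa2 stood above Cd36, Acadl and Lpl. The lowest were Acsl3, at 2.04 RPKM after dexmedetomidine and 1.36 RPKM after vehicle, and Cpt1b, at 0.261 RPKM after dexmedetomidine and 0.467 RPKM after vehicle. Of 18 genes with a mean of at least 300 CPM, 16 had a log2 fold change below 0 (median -0.12), as had 11 of 12 genes under 100 CPM (median -0.35).

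Among genes of uptake, lipolysis of circulating fat and intracellular binding, the members went in opposite directions. Lpl (ENSMUSG00000015568), the lipase that splits circulating triglyceride at the capillary wall, measured 4315, 5364 and 6372 CPM in dexmedetomidine replicates 1, 2 and 3, against 3045, 2139 and 4169 CPM in vehicle replicates 1, 2 and 3. Every dexmedetomidine value lay above every vehicle value, though vehicle replicate 3 came close to dexmedetomidine replicate 1. The log2 fold change was 0.78 (SE 0.24), a 1.72-fold difference, with an edgeR adjusted p of 0.128 and a DESeq2 adjusted p of 0.0210. Angptl4 (ENSMUSG00000002289), a secreted inhibitor of that lipase and a PPAR target, measured 79.8, 72.6 and 72.7 CPM after dexmedetomidine and 106, 139 and 99.8 CPM after vehicle. Its groups did not overlap and the dexmedetomidine libraries lay close together. The log2 fold change was -0.61 (SE 0.14), with an edgeR adjusted p of 0.102 and a DESeq2 adjusted p of 0.00729. The ratio of Lpl to Angptl4 counts was 54.1, 73.9 and 87.6 in dexmedetomidine libraries and 28.8, 15.4 and 41.8 in vehicle libraries.

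Cd36 (ENSMUSG00000002944), the main fatty acid translocase of the cardiomyocyte membrane, measured 1737, 2694 and 2443 CPM after dexmedetomidine and 1970.3, 1684 and 2036 CPM after vehicle. The groups overlapped, since dexmedetomidine replicate 1 lay among the vehicle values (log2 fold change 0.27, SE 0.17, edgeR adjusted p = 0.381). Slc27a1 (ENSMUSG00000031808), a fatty acid transport protein with acyl-CoA synthetase activity, measured 104, 123 and 90.9 CPM after dexmedetomidine and 147, 169 and 174 CPM after vehicle. Its groups were apart, with a log2 fold change of -0.62 (SE 0.14), an edgeR adjusted p of 0.101 and a DESeq2 adjusted p of 0.00506. Fabp3 (ENSMUSG00000028773) measured 1704, 1142 and 1118 CPM after dexmedetomidine and 1991, 2649.8 and 2049 CPM after vehicle. All 3 dexmedetomidine values were below the lowest vehicle value, with dexmedetomidine replicate 1 the nearest to it (log2 fold change -0.75, SE 0.19, edgeR adjusted p = 0.108, DESeq2 adjusted p = 0.00536). Of the 50-base words in its longest transcript (GENCODE M21), 29.2% also occur in the pseudogene Fabp3-ps1. Reads of the shared stretches may thus be counted for neither gene. Fabp3-ps1 measured 20.4, 13.8 and 11.4 CPM after dexmedetomidine and 32.4, 34.8 and 24.1 CPM after vehicle, far below Fabp3 and in the same order of groups.

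**Figure D1:**
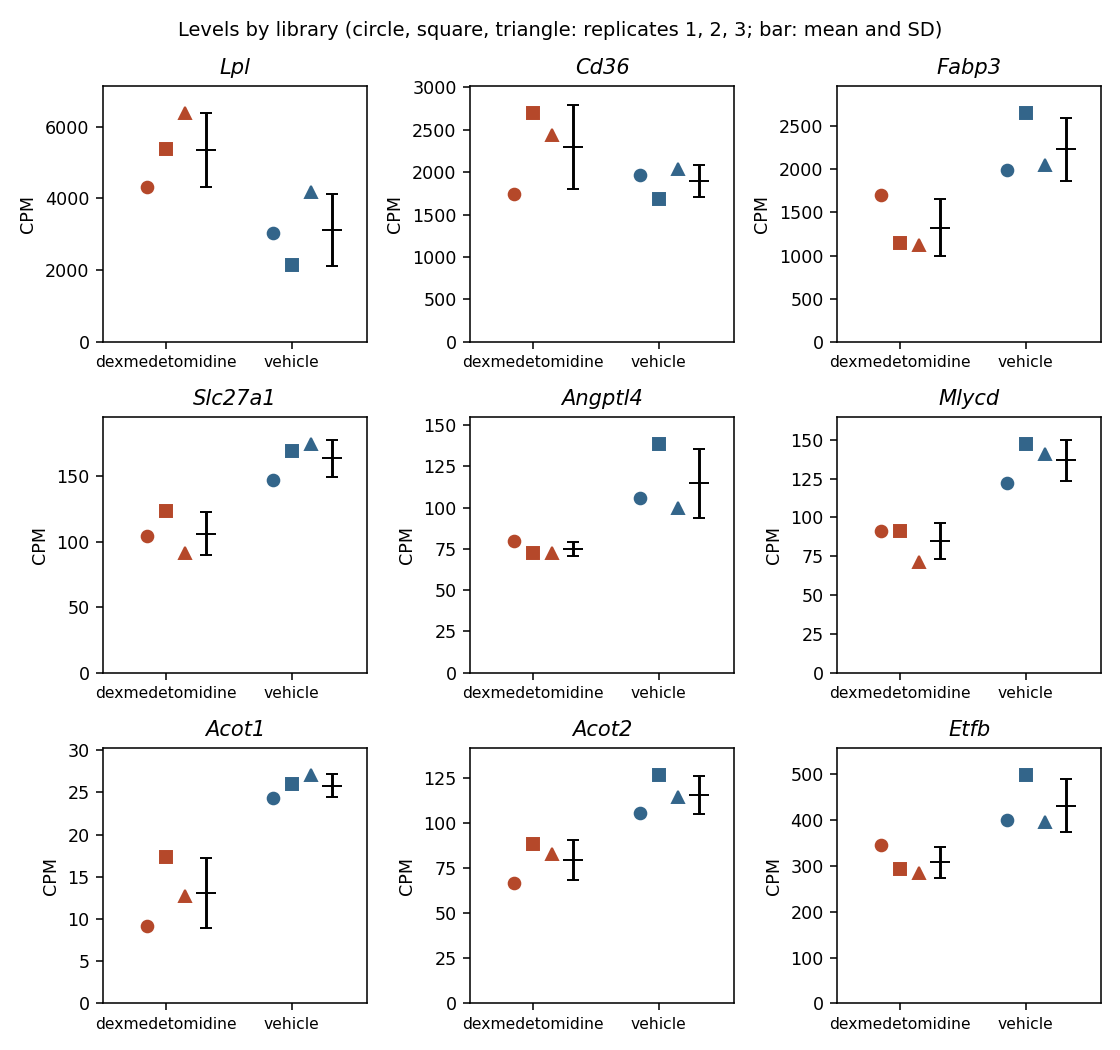
Levels (CPM, vertical axis from 0) of 9 genes in each library, with dexmedetomidine left of vehicle, replicates as circle, square and triangle, and the mean and SD of 3 libraries as a bar. Lpl lies higher in the dexmedetomidine libraries, Cd36 overlaps, and the other 7 genes have every dexmedetomidine value below every vehicle value.

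Activation to acyl-CoA showed little difference for its main enzyme without offsets. Acsl1 (ENSMUSG00000018796), the chief long-chain acyl-CoA synthetase of heart, measured 713, 866 and 866 CPM after dexmedetomidine and 811, 892 and 848 CPM after vehicle. The groups overlapped, and the log2 fold change was -0.06 (SE 0.12, edgeR adjusted p = 0.813). Acsl3 (ENSMUSG00000032883), a synthetase of the endoplasmic reticulum and lipid droplet present at a low level, measured 7.26, 6.39 and 8.43 CPM after dexmedetomidine and 5.19, 4.57 and 4.93 CPM after vehicle. Its groups were apart (log2 fold change 0.59, SE 0.19, edgeR adjusted p = 0.132). Acsl5, a synthetase of mitochondria and endoplasmic reticulum, overlapped between the groups with a log2 fold change of -0.07. With offsets for GC content and length, Acsl1 was at -0.44, Acsl3 at 0.20 and Acsl5 at -0.14.

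All 7 genes of the carnitine shuttle and its control had a log2 fold change below 0. Mlycd (ENSMUSG00000074064), malonyl-CoA decarboxylase, removes the malonyl-CoA that inhibits carnitine palmitoyltransferase 1, and had the smallest p of the 39. It measured 91.3, 91.3 and 71.6 CPM after dexmedetomidine and 122, 147 and 141 CPM after vehicle. The highest dexmedetomidine value was well below the lowest vehicle value, with a log2 fold change of -0.69 (SE 0.14), an edgeR adjusted p of 0.101 and a DESeq2 adjusted p of 0.00128. Slc25a20, the carnitine-acylcarnitine carrier of the inner membrane, averaged 124 ± 4.79 CPM after dexmedetomidine and 155 ± 15.2 CPM after vehicle (SD, n = 3 each), with no overlap and an edgeR adjusted p of 0.173. Cpt1a, the liver-type transferase that the heart also expresses, overlapped at 32.7 to 48.3 CPM after dexmedetomidine and 43.1 to 58.8 CPM after vehicle. Cpt2, Crat and the carnitine importer gene Slc22a5 also overlapped, with log2 fold changes of -0.14, -0.20 and -0.27. Slc22a5 shares 27.0% of its 50-base words with its relative Slc22a21.

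Cpt1b (ENSMUSG00000078937), the muscle-type transferase known as the main isoform of the adult heart, was almost without counts in the deposited table. It measured 1.13, 0.719 and 0.796 CPM after dexmedetomidine and 0.956, 1.71 and 2.06 CPM after vehicle, in overlapping groups (log2 fold change -0.83, SE 0.41, edgeR adjusted p = 0.272). Its row thus lay below that of Cpt1a, the reverse of what is known of this tissue. In GENCODE M21, 93.0% of the 50-base words of Cpt1b also occur in Gm44502, a gene model that overlaps its exons on the same strand. Counting by gene can set aside reads that fall on more than 1 gene, and 1.83% to 2.37% of the reads in the table were classed as ambiguous. Whether such reads account for the low Cpt1b row was not tested. The row is uncertain, and it is counted among the 7 genes of this step and the 39 in all.

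**Figure D2:**
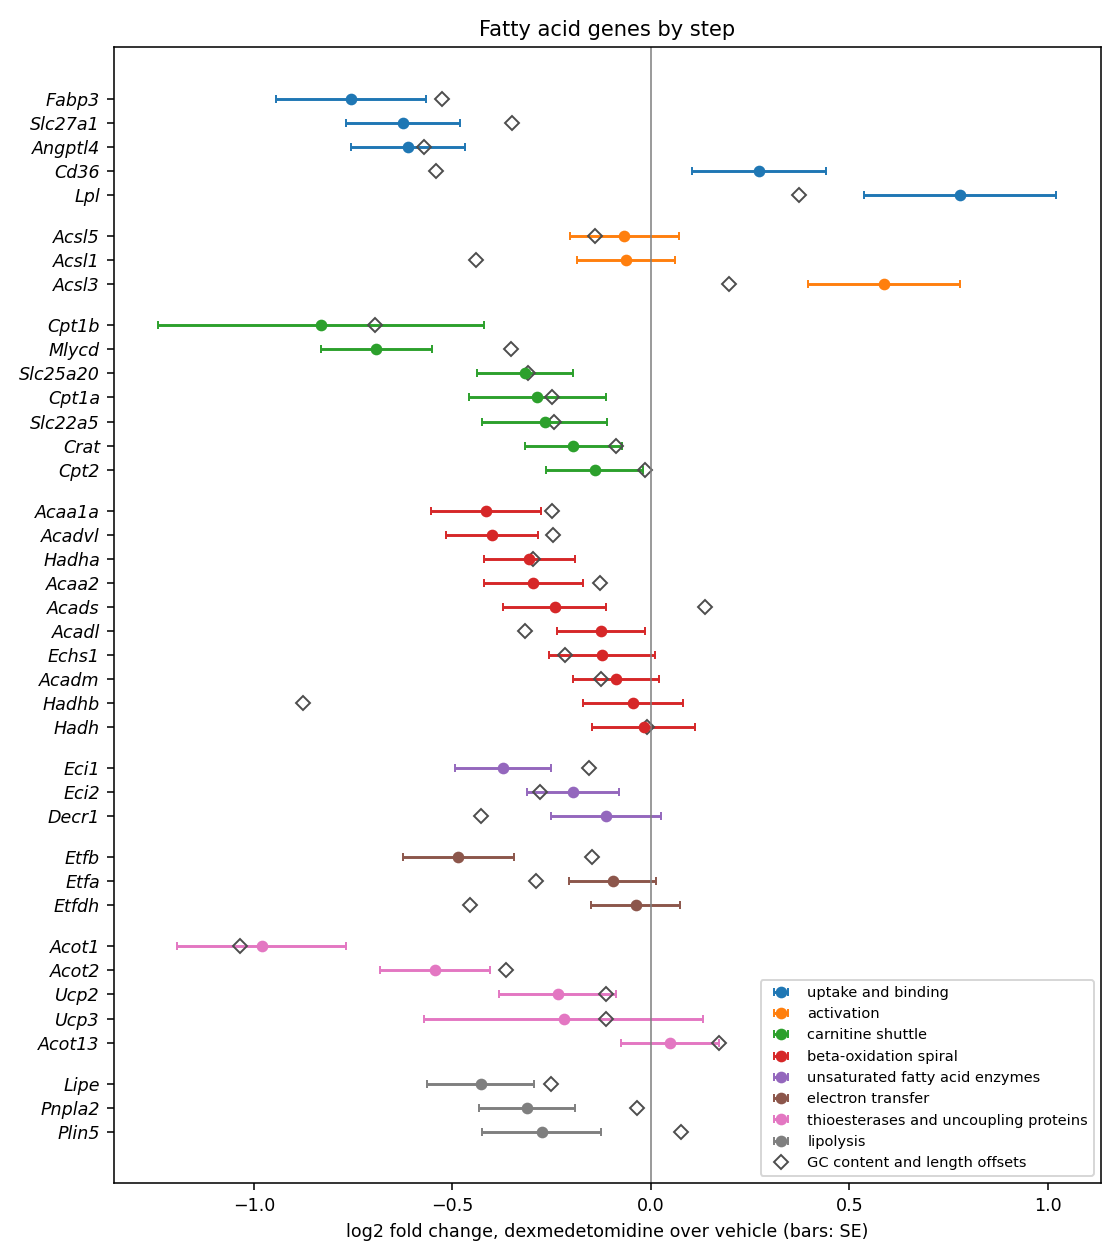
Log2 fold change (horizontal axis, dexmedetomidine over vehicle) of the 39 genes by step of the pathway, with bars of 1 SE. Open diamonds show the values with offsets for GC content and length. Points lie left of 0 for 35 of 39 genes, and Lpl and Acsl3 lie farthest to the right.

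In the beta-oxidation spiral all 10 genes had a log2 fold change below 0, between -0.42 and -0.02, and 9 of 10 were below 0 when offsets in the fit removed trends with GC content and length, Acads being above 0. Acadvl (ENSMUSG00000018574), the very-long-chain acyl-CoA dehydrogenase that starts the spiral at the inner membrane, measured 344, 318 and 321 CPM after dexmedetomidine and 409, 473 and 415 CPM after vehicle. Its groups were apart, with a log2 fold change of -0.40 (SE 0.12), an edgeR adjusted p of 0.114 and a DESeq2 adjusted p of 0.0302. The dehydrogenases for shorter chains were nearer to 0 without offsets. With offsets for GC content and length, Acadvl was at -0.25, Acadl at -0.32, Acadm at -0.13 and Acads at 0.14. Acadl, for long chains, measured 808, 868 and 878 CPM after dexmedetomidine and 958, 955 and 872 CPM after vehicle, with 1 vehicle value inside the dexmedetomidine range. Acadm, for medium chains, overlapped with a log2 fold change of -0.09. Acads, for short chains, was apart at 184 to 206 CPM after dexmedetomidine and 210.3 to 266 CPM after vehicle (log2 fold change -0.24, edgeR adjusted p = 0.309).

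Hadha and Hadhb code for the 2 kinds of subunit of the mitochondrial trifunctional protein, which carries out the hydration, dehydrogenation and thiolysis of long chains. Hadha (ENSMUSG00000025745) measured 1205, 1281 and 1199.5 CPM after dexmedetomidine and 1497, 1643 and 1417 CPM after vehicle. All dexmedetomidine values lay below all vehicle values (log2 fold change -0.31, SE 0.11, edgeR adjusted p = 0.168). Hadhb overlapped, at 1487, 1779 and 1587 CPM after dexmedetomidine and 1794, 1710.3 and 1500.2 CPM after vehicle (log2 fold change -0.04, SE 0.13, edgeR adjusted p = 0.875). The ratio of Hadha to Hadhb counts was 0.810, 0.720 and 0.756 in dexmedetomidine libraries and 0.834, 0.961 and 0.945 in vehicle libraries. The partners of 1 complex thus differed in their values without offsets. With offsets for GC content and length, Hadha was at -0.30 and Hadhb at -0.88. With the GC content of the longest protein-coding transcripts, Hadha was at -0.31 and Hadhb at -0.35. The thiolase genes Acaa2 and Acaa1a were both lower and apart. Acaa2, the mitochondrial 3-ketoacyl-CoA thiolase, measured 703 to 732 CPM after dexmedetomidine and 761 to 944 CPM after vehicle (edgeR adjusted p = 0.206). Acaa1a (ENSMUSG00000036138), a peroxisomal thiolase, measured 62.8, 54.9 and 48.4 CPM after dexmedetomidine and 70.1, 83.2 and 68.2 CPM after vehicle (log2 fold change -0.42, SE 0.14, edgeR adjusted p = 0.136). Acaa1a shares 15.6% of its 50-base words with Acaa1b, which had 0 to 7 counts in each library. Hadh and Echs1, the medium and short chain dehydrogenase and hydratase, overlapped with log2 fold changes of -0.02 and -0.12.

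The enzymes that prepare double bonds for the spiral gave small values of one sign. Eci1 (ENSMUSG00000024132), a mitochondrial enoyl-CoA isomerase, measured 220.5, 207 and 195 CPM after dexmedetomidine and 268, 292 and 246 CPM after vehicle. The groups were apart (log2 fold change -0.37, SE 0.12, edgeR adjusted p = 0.131). Eci2, a second isomerase, was also apart but by less, at 84.1 to 98.5 CPM after dexmedetomidine and 99.2 to 108 CPM after vehicle. Decr1, the dienoyl-CoA reductase, overlapped with a log2 fold change of -0.11.

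Electron transfer flavoprotein takes electrons from the acyl-CoA dehydrogenases and hands them to the ubiquinone oxidoreductase encoded by Etfdh. Etfb (ENSMUSG00000004610), its beta subunit, measured 346, 293 and 285 CPM after dexmedetomidine and 400.3, 498 and 395 CPM after vehicle. The groups were apart, with a log2 fold change of -0.49 (SE 0.14), an edgeR adjusted p of 0.113 and a DESeq2 adjusted p of 0.0274. An overlapping model on the same strand, Gm45233, holds 67.3% of the 50-base words of Etfb, which makes its counts uncertain. The alpha subunit Etfa was apart by a narrow margin, at 446 to 478 CPM after dexmedetomidine and 485 to 527 CPM after vehicle (log2 fold change -0.10, edgeR adjusted p = 0.652). Etfdh overlapped at -0.04. With offsets for GC content and length, Etfb was the nearest to 0 at -0.15, with Etfa at -0.29 and Etfdh at -0.46. With the GC content of the longest protein-coding transcripts, Etfb was at -0.15, Etfa at -0.31 and Etfdh at -0.23.

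Thioesterases release free fatty acids and CoA from acyl-CoA, and the cytosolic Acot1 and mitochondrial Acot2 are neighbouring genes known to respond to PPAR-alpha. Acot1 (ENSMUSG00000072949) measured 9.14, 17.4 and 12.7 CPM after dexmedetomidine and 24.4, 26.0 and 27.1 CPM after vehicle. It was the gene with the largest difference among the 39 in the lower direction, a 1.97-fold lower level by the fit (log2 fold change -0.98, SE 0.21, edgeR adjusted p = 0.101, DESeq2 adjusted p = 0.00178). The vehicle libraries lay close together, while dexmedetomidine replicate 1 was about as far below replicate 2 as replicate 2 was below the vehicle group. Acot2 (ENSMUSG00000021226) measured 67.0, 88.4 and 83.0 CPM after dexmedetomidine and 106, 127 and 114 CPM after vehicle, again with replicate 1 the lowest (log2 fold change -0.54, SE 0.14, edgeR adjusted p = 0.109, DESeq2 adjusted p = 0.0172). Acot2 holds 24.6% of its 50-base words in common with Acot1, and reads of the stretch they share cannot be assigned to either. Acot13, a mitochondrial thioesterase of another family, overlapped at 175 to 198 CPM after dexmedetomidine and 162 to 197 CPM after vehicle (log2 fold change 0.05).

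The uncoupling proteins Ucp2 and Ucp3, inner membrane carriers linked to fatty acid use, overlapped between the groups. Ucp2 measured 83.5, 96.7 and 113 CPM after dexmedetomidine and 115, 101 and 129 CPM after vehicle (log2 fold change -0.23, SE 0.15). Ucp3 measured 17.5, 45.7 and 42.1 CPM after dexmedetomidine and 34.9, 32.6 and 55.0 CPM after vehicle (log2 fold change -0.22, SE 0.35). Its spread within the dexmedetomidine group came from replicate 1, and without that library the log2 fold change was 0.10. It was 0.06 without vehicle replicate 3, the highest of the vehicle group.

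All 3 genes that act on the cell's own triglyceride measured lower, with a median log2 fold change of -0.31, but with offsets for GC content and length 2 of 3 were below 0 and the median was -0.04. Pnpla2 (ENSMUSG00000025509), adipose triglyceride lipase, takes the first fatty acid from stored triglyceride and measured 375, 465 and 427 CPM after dexmedetomidine and 528, 538 and 507 CPM after vehicle. Its groups were apart (log2 fold change -0.31, SE 0.12, edgeR adjusted p = 0.178). Lipe (ENSMUSG00000003123), hormone-sensitive lipase, acts on the diglyceride that remains and measured 67.8, 51.7 and 66.9 CPM after dexmedetomidine and 85.5, 77.8 and 87.9 CPM after vehicle. Its groups were apart too (log2 fold change -0.43, SE 0.14, edgeR adjusted p = 0.127). Plin5, a lipid droplet coat protein that tethers droplets to mitochondria, measured 113, 136 and 115 CPM after dexmedetomidine and 134, 131 and 176 CPM after vehicle, and overlapped (log2 fold change -0.28, SE 0.15).

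Across libraries, the 39 genes were on the whole low in each dexmedetomidine library and high in each vehicle library. The median deviation from each gene's own mean, on the log2(CPM + 0.5) scale, was -0.18, -0.03 and -0.11 in dexmedetomidine replicates 1, 2 and 3 and 0.12, 0.19 and 0.07 in vehicle replicates 1, 2 and 3. Dexmedetomidine replicate 1 was the lowest library for 19 of the 39 genes and vehicle replicate 2 the highest for 22. The summed level of the 39 genes overlapped nonetheless, at 18973 to 21597 CPM after dexmedetomidine and 20329 to 20819 CPM after vehicle. Lpl alone contributed 4315 to 6372 CPM of it after dexmedetomidine and 2139 to 4169 CPM after vehicle. With each library left out in turn the log2 fold change kept its sign for 33 of the 39 genes, and the other 6 were Acsl1, Acsl5, Hadh, Hadhb, Acot13 and Ucp3.

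**Figure D3:**
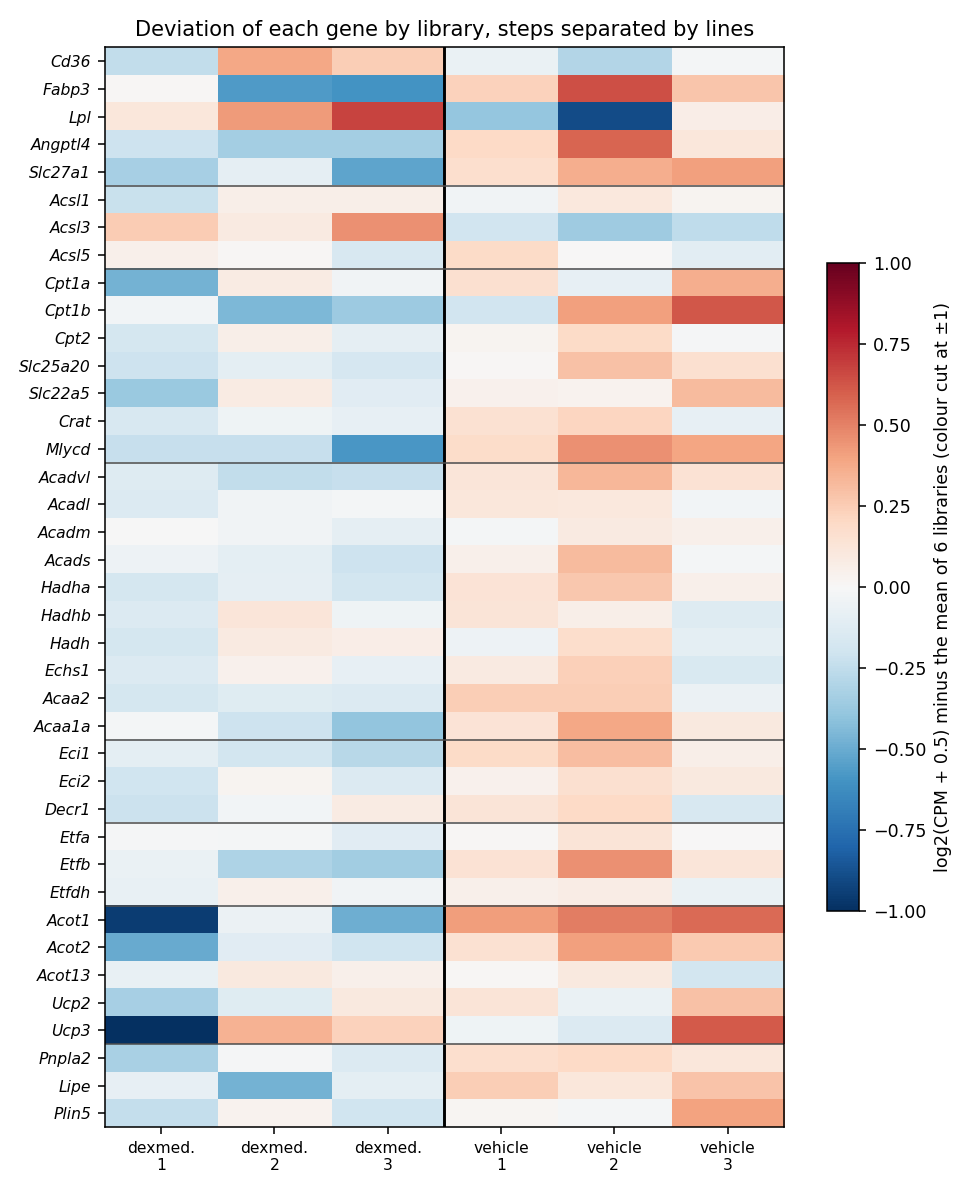
Deviation of each gene from its mean over 6 libraries (colour, log2 scale, cut at 1 in each direction), with dexmedetomidine libraries left of vehicle libraries and pathway steps separated by lines. Blue prevails on the left and red on the right, Lpl and Acsl3 show the reverse, and Ucp3 and Acot1 are lowest in dexmedetomidine replicate 1.

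Base composition moved with the fold changes. Across the 39 genes the GC content of the longest transcript and the log2 fold change had a Spearman correlation of -0.68, and across all genes tested it was -0.63. These are correlations across genes that share the same 6 libraries, and genes are not independent replicates. The members are therefore given beside all genes of like composition. Of 9 members with under 46% GC, 6 had a log2 fold change below 0 (median -0.04), against 14.8% of all such genes (median 0.36). Of 12 members with 46% to 52% GC, 11 were below 0 (median -0.23), against 46.8% of all such genes (median 0.02). Of 18 members with over 52% GC, 18 were below 0 (median -0.39), against 79.9% of all such genes (median -0.23).

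When each library's trend with GC content and length was removed by offsets in the edgeR fit, 34 of the 39 genes had a log2 fold change below 0, against 54.3% of all genes, with a median of -0.25. No gene of the 39, and none of all genes, passed the adjusted threshold in that fit. An unadjusted p under 0.05 was reached by 16 of 39 in the lower direction, against 7.8% of all genes, and by 1 in the higher direction, against 4.79%. Single genes moved by more than the list's median did. Cd36, at 38.4% GC the lowest of the 39, had a log2 fold change of -0.54 with the offsets and 0.27 without. Acads and Plin5, near 59% to 60% GC, were at 0.14 and 0.08 with them. Lpl was at 0.37, Mlycd at -0.35, Slc27a1 at -0.35, Etfb at -0.15 and Pnpla2 at -0.04. Fabp3 was at -0.53, where it had been -0.75, while Angptl4 was at -0.57 and Acot1 at -1.03, close to their values without the offsets.

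For 12 of the 39 genes the longest transcript model differed in GC content from the longest protein-coding one, often because it retains an intron. With the protein-coding models, again 34 of 39 were below 0, against 54.6% of all genes, and the median was -0.20. An unadjusted p under 0.05 was then reached by 12 in the lower direction, against 6.78% of all genes, and by 1 in the higher direction, against 4.64%. Hadhb was at -0.88 with the first kind of model (39.1% GC) and at -0.35 with the second (45.4% GC). Hadha was at -0.30 and -0.31, so that with the protein-coding models the partners had like values. Acot1 was at -0.80, Acsl1 at -0.20 where it had been -0.44, and Cd36 at -0.65.

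**Figure D4:**
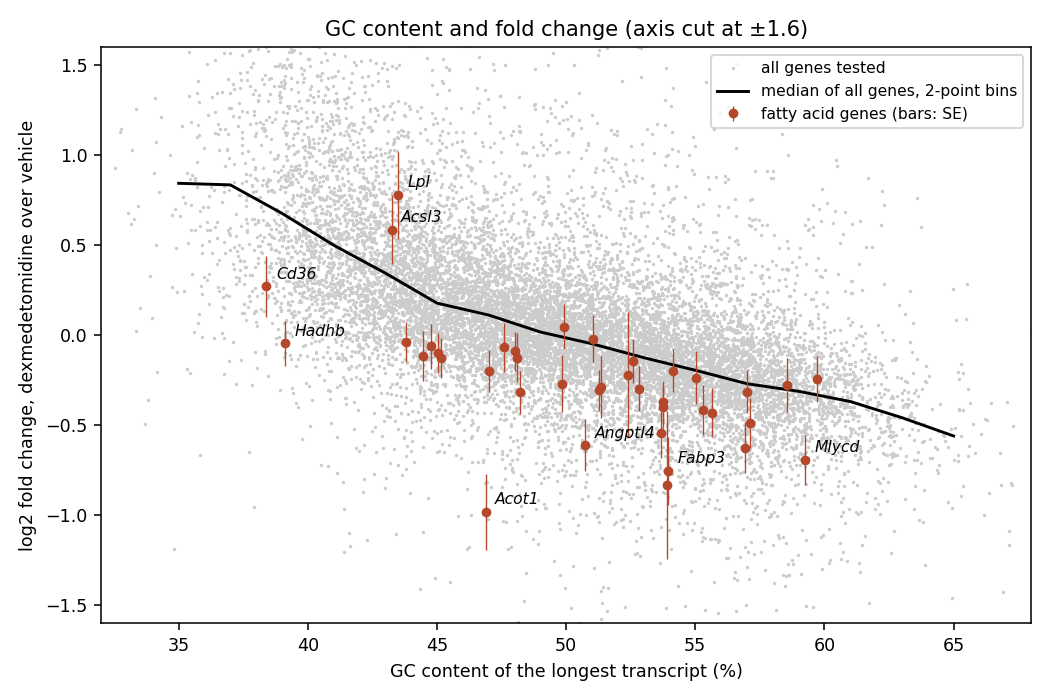
GC content of the longest transcript (horizontal axis, %) against the log2 fold change (vertical axis, dexmedetomidine over vehicle) for all genes tested (grey) and the 39 fatty acid genes (red, bars of 1 SE), with the median of all genes in bins as a line. Red points follow the fall from left to right and lie mostly below the line, while Lpl lies above it.

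Other genes of fatty acid handling were also more often lower than higher. Of 50 further genes of transport, peroxisomal and minor mitochondrial oxidation, droplets and triglyceride synthesis, 47 were tested, and Slc27a6, Acaa1b and Eci3 were too low. Below 0 were 31 of 47, against 49.7% of all genes, with a median log2 fold change of -0.12. With the GC content and length offsets 37 of 47 were below 0, against 54.3% of all genes, with a median of -0.11. None passed the edgeR adjusted threshold. An unadjusted p under 0.05 was reached by 7 in the lower direction, against 9.03% of all genes, and by 3 in the higher direction, against 12.5%. Among those with the smallest p were Abcd2, Acadsb and Acsl4 on the higher side and Dgat1 and Acacb on the lower side. Acadsb, which oxidises short branched acyl-CoA, averaged 173 ± 20.9 CPM after dexmedetomidine and 114 ± 26.1 CPM after vehicle (SD, n = 3 each, edgeR adjusted p = 0.114). Abcd2, a peroxisomal fatty acid importer, had a log2 fold change of 1.01 and the arachidonate-preferring synthetase gene Acsl4 of 0.53. Acacb, which makes malonyl-CoA at the mitochondrion and so opposes Mlycd, had a log2 fold change of -0.32, and the triglyceride synthesis gene Dgat1 of -0.35. With the GC content and length offsets Abcd2, Acadsb and Acsl4 were at 0.47, 0.17 and -0.24, and Dgat1 and Acacb at -0.11 and -0.17, each nearer to 0 or past it. DESeq2 called Abcd2 and Acadsb higher, and limma-voom called Acadsb and Acsl4 higher.

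Regulators of the pathway were split in direction. Of 12 genes for PPAR, ERR and PGC-1 factors, partners and AMP-activated kinase subunits, 5 were below 0 and 7 above, while with the GC content and length offsets 7 were below 0 and 5 above. None passed the edgeR adjusted threshold. DESeq2 and limma-voom each called the same 4, with Ppargc1a and Esrrg higher and Esrrb and Esrra lower. Ppargc1a, the coactivator PGC-1alpha, measured 134, 137 and 224 CPM after dexmedetomidine and 104, 63.5 and 80.7 CPM after vehicle (log2 fold change 0.99, SE 0.24, edgeR adjusted p = 0.109). Its groups were apart, in the direction opposite to most of the 39 genes. Esrrb, an orphan receptor of the ERR family, measured 23.0, 24.9 and 26.0 CPM after dexmedetomidine and 33.6, 33.3 and 35.6 CPM after vehicle (log2 fold change -0.47, SE 0.12, edgeR adjusted p = 0.108). Esrrg, another ERR receptor, had a log2 fold change of 0.53 (SE 0.16). With the GC content and length offsets Ppargc1a was at 0.40, Esrrb at -0.35 and Esrrg at 0.03.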

How the data were processed

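The mouse build mm9 and the tools HTSeq and Trim Galore are named, per the submitters' processing notes. The aligner, annotation, versions and strand setting are not stated there. Per the labels, poly(A) RNA was selected from 1 µg of RNA per sample and libraries were made with an NEBNext Ultra kit. The authors deposited raw counts per gene and gene lengths in bases. The 5 summary rows stayed out of library sizes: of all reads in the table, 28.0% to 39.5% aligned at more than 1 place, 2.33% to 3.63% lay outside genes and 1.83% to 2.37% were ambiguous.

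Symbols came from GENCODE M21 (32897 of 37620 genes matched), which is of another build than mm9. It was used for names, GC content, shared 50-base words and exon overlaps between genes only. Genes were tested with edgeR 4.0.16 in R 4.3.3 (quasi-likelihood, robust, filterByExpr, TMM, Benjamini-Hochberg, threshold 0.05), with SEs from the F statistic. DESeq2 1.42.0 and limma 3.58.1 were alternatives. GC content and length offsets used natural splines with 5 and 3 degrees of freedom. Tests were tried on simulated counts. The 39 genes, lists and alternatives were chosen with earlier results of these data known. By a set rule, every library's value is given for the 14 genes with the smallest p and for a named list (Cd36, Lpl, Cpt1b, Acsl1, Acadl, Hadha, Ucp2, Pnpla2 and Plin5), and the other genes are given by range or fold change. Hadhb and Ucp3 are also given by library and were chosen after their values were seen. Among further pathway genes and regulators, the 6 and 3 with the smallest p were chosen, of which 1 is not reported here, with single others mentioned for what they measure. Same-numbered libraries are not said to pair animals, so no block was used in the main fit. Counting error is small beside the spread between libraries for genes with high counts at these depths. It matters more in low rows such as Cpt1b, with counts of 28 to 119.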

Additional observations from a re-analysis of the deposited data

How the results depend on the processing

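Counts of fatty acid genes past the adjusted threshold depended on the tool and the samples, and directions mostly did not. Of the 39 genes, DESeq2 called 9 (1272 of all genes), limma-voom 13 (2107), edgeR with no filter 6 (406 of all genes, 1.88%), and edgeR with 1 library left out 0 to 7 (0 to 1251). The 7 came without vehicle replicate 3. Among the 12 regulators, DESeq2 and limma-voom called 4 each, the replicate block 1 (Ppargc1a) and edgeR without vehicle replicate 3 called 2 (Esrrg and Klf15). Over the further pathway genes, DESeq2 and limma-voom called 2 each, and fits with 1 library left out 0 to 2. The median log2 fold change of the 39 was between -0.31 and -0.16 with 1 library left out. The replicate number as a block gave 4 calls among the 39 (636 of all genes, 4.32%), namely Acot1, Mlycd, Slc27a1 and Lpl, and 1 among the further genes (Acadsb). With GC content and length offsets, the replicate block gave 2 (Acot1 and Hadhb; 145 of all genes, 1.01%). Deviations of same-numbered libraries correlated at -0.05, 0.03 and 0.15, and not every library correlated best with its own number, so the numbers are not shown to pair samples. Size factors of DESeq2, a mean of at least 5 CPM, leaving out mitochondrially encoded genes, and offsets alone left 0 of the 39 past the threshold. The GC content of protein-coding models was an alternative added after seeing the data. The number of genes below 0 was 31 to 35 in every setting. Why the counts of calls differed was not tested.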

Other observations

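Dexmedetomidine replicate 1 stood apart from the other dexmedetomidine libraries. When libraries were compared in pairs, its chi-square per degree of freedom was 116 and 144 against dexmedetomidine replicates 2 and 3. Those replicates had 31.0 between them. Vehicle libraries were also unlike each other, as vehicle replicate 2 had 89.9 and 162 against vehicle replicates 1 and 3. Vehicle replicates 1 and 3 had 62.1 between them. Against vehicle replicates 1, 2 and 3, dexmedetomidine replicate 1 had 73.0, 199 and 62.7. The genes given here were chosen after their values were seen. Ucp3 measured 17.5 CPM there against 45.7 and 42.1 CPM in replicates 2 and 3, and Cpt1a 32.7 CPM against 48.3 and 44.5 CPM. Pdk4, the kinase that limits glucose oxidation, measured 1454, 3099.9 and 3180.2 CPM in dexmedetomidine replicates 1, 2 and 3 and 2190, 1975.5 and 1996 CPM in vehicle replicates 1, 2 and 3. Fabp3 went the other way, at 1704 CPM in dexmedetomidine replicate 1 and 1142 and 1118 CPM in replicates 2 and 3. The ratio of Cd36 to Fabp3 counts was 1.02, 2.36 and 2.18 in dexmedetomidine libraries and 0.990, 0.635 and 0.994 in vehicle libraries. These ratios are without offsets, and with offsets for GC content and length the log2 fold changes were alike (Cd36 -0.54, Fabp3 -0.53). In the ratio without offsets, dexmedetomidine replicate 1 was close to the vehicle libraries. Other genes set it apart less, among them Angptl4, at 79.8, 72.6 and 72.7 CPM, and Acadm, at 948, 927 and 894 CPM, in dexmedetomidine replicates 1, 2 and 3. That replicate also had the lowest mitochondrially encoded share of its group, at 27.1%. Whether these values share a source was not tested.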
